A study of Arabidopsis thaliana with 9 samples.

Results

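In Arabidopsis seedlings moved to medium with the compound FPX, 228 probe sets were at least 2.00-fold higher after 2 d. They stayed near that level at 8 d and belong to 226 genes whose symbol in the annotation is a locus code. They were chosen from 5072 probe sets of 5040 genes with a locus code for a symbol. The table held 11228 tested probe sets in all, and shares of all tested probe sets are shares of this table. Whether the table was filtered for change before deposit was not tested, so these shares may not hold for all genes of the plant. The choice rests on the group means of log2(signal + 16), where signal is the deposited array intensity of a probe set. A member had a difference of at least 1 between 2 d and 0 d, and a difference between 8 d and 2 d that was smaller than 0.5 in either direction. All contrasts between the groups were therefore used to choose the members, and the differences below describe them with no test of their own.

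The study followed wild-type Arabidopsis thaliana seedlings that were 4 d old when moved to medium with 45 µM FPX, which its title names as a chemical inducer of callus formation and shoot regeneration. Whole seedlings gave total RNA at 0, 2 and 8 d, with 3 arrays per group and 9 in all. Whether the 3 arrays of a group stand for separate cultures is not stated, so errors and p-values measure the spread between these arrays, which may be technical. Untreated seedlings of the later ages and seedlings on auxin and cytokinin were not analysed here. Treatment and age therefore cannot be told apart in any contrast, and the 0 d arrays are a re-analysis of arrays from another series, with no statement of whether they were run together with the rest. In whole seedlings, more cells that carry a transcript and more transcript per cell cannot be told apart either.

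Callus is a mass of dividing, little-differentiated plant cells that forms at wounds or on medium with auxin and cytokinin, and from which new shoots can be raised. Its formation in culture is known to start from cells near the vascular tissue and to follow a programme that resembles lateral root formation. Whether the genes described here take part in callus formation was not tested. A locus code such as AT5G01870 gives the chromosome after the letters AT and then a number that runs along it. It says nothing of what the encoded protein does.

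The arrays of a group resembled each other more than those of different groups, with r = 0.987 to 0.991 within groups and 0.712 to 0.893 between them over all tested probe sets. The 75th percentile of signal lay between 1047 and 1105 on all arrays. Of 13 marker genes of leaf, stomata, trichome, root, phloem and seed, 8 were lower, 1 higher and 4 not past the threshold at 2 d, and 10 were lower and 2 higher at 8 d (limma, adjusted p below 0.05). Of all tested probe sets, 28.1% were lower at 2 d and 36.1% at 8 d. Summed over the markers, the signal lay between 74231 and 81863 on the 0 d arrays, between 62458 and 64682 on those of 2 d, and between 40431 and 44955 on those of 8 d. At 0 d the leaf genes RCA, LHCB4.1, LHCB4.2 and SBPASE and the root gene PYK10 were the brightest, so the sum mostly follows these. Markers of the same tissue could differ. Of the phloem markers, CLE44 changed by 1.36 at 2 d and 1.65 at 8 d, CLE41 by −0.79 and −1.44, and SWEET11 by −0.20 and −0.42. No marker was at 0, and the lowest single signal was 27.1. The part of these lower marker signals in the rises described below was not tested.

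The largest rise belonged to AT5G01870, whose signal was 1208, 873 and 1574 on the 0 d arrays. It was 10710, 11090 and 11057 at 2 d and 9615, 12078 and 12448 at 8 d. No array of the treated seedlings came near the 0 d arrays, while the 2 d and 8 d arrays overlapped. The difference on the log2(signal + 16) scale was 3.19 ± 0.18 (SE, n = 3 and 3), or 9.13-fold, at 2 d and 3.24, or 9.43-fold, at 8 d.

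AT4G13210 was dim and even before treatment, with signals of 74.6, 74.4 and 77.1. At 2 d it read 459, 614 and 552, and at 8 d 874, 678 and 641. The 8 d arrays all lay above the 2 d arrays, and the difference of 0.42 between the 2 times placed this probe set near the upper limit for a held rise. Its rise over 0 d was 2.60 ± 0.13 (SE) at 2 d and 3.02 at 8 d. AT3G63240 had the same shape, with 92.5, 77.5 and 91.9 at 0 d, 484, 544 and 525 at 2 d, and 734, 733 and 618 at 8 d. Its differences from 0 d were 2.37 ± 0.10 (SE) and 2.78, with no overlap between any of the groups.

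AT1G23130 was bright and nearly level between the treated times. Its signal was 692, 830 and 586 at 0 d, 4216, 3537 and 3165 at 2 d, and 3590, 3677 and 3866 at 8 d. The 3 arrays at 8 d lay inside the range of the 2 d arrays. The differences from 0 d were 2.35 ± 0.13 (SE) and 2.39, so the change from 2 d to 8 d was 0.04, with a 95% interval from −0.25 to 0.33. AT4G17350 was as level on a lower signal, with 116, 153 and 180 at 0 d, 586, 689 and 661 at 2 d, and 648, 611 and 691 at 8 d. It differed from 0 d by 2.01 ± 0.13 (SE) and 2.02, and the groups at 2 d and 8 d overlapped throughout.

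Other members chosen for the size of their rise kept climbing slightly. AT2G34357 had 152, 130 and 108 at 0 d, 690, 648 and 737 at 2 d, and 863, 801 and 806 at 8 d. Its differences from 0 d were 2.29 ± 0.11 (SE) and 2.53, and its 8 d arrays all stood above its 2 d arrays. AT3G05060, brighter from the start, had 631, 670 and 577 at 0 d, 2369, 2551 and 2396 at 2 d, and 3184, 3287 and 2966 at 8 d. Its 3 groups were apart at each step, with differences from 0 d of 1.94 ± 0.09 (SE) and 2.30. AT1G66250 had 213, 211 and 255 at 0 d, 943, 1029 and 957 at 2 d, and 1365, 1343 and 1327 at 8 d. It showed the largest later change of these probe sets, 0.46, with a 95% interval of 0.26 to 0.65 that reaches past the limit of 0.5.

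AT3G10530 and AT2G18900 overlapped between the treated times. The signal of AT3G10530 was 101, 182 and 123 at 0 d, 593, 598 and 695 at 2 d, and 780, 664 and 744 at 8 d. That of AT2G18900 was 145, 180 and 133 at 0 d, 623, 775 and 583 at 2 d, and 842, 723 and 755 at 8 d. At 2 d they were higher than at 0 d by 2.12 ± 0.16 and 2.00 ± 0.13 (SE), and their later changes were 0.21 and 0.23.

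AT3G27400 was lower at 8 d than at 2 d, alone among the 12 probe sets named for the size of their rise. That set leaves out members whose 2 d mean was below the median of all probe sets, and 3 of the 4 left out with a larger rise than AT3G27400 were lower at 8 d as well, the exception being the dimmer probe set of AT1G79150. These 3 were chosen for mention after their values were seen. AT1G67865 differed from 0 d by 2.47 at 2 d and changed by −0.11 from there, AT1G63100 by 2.36 and −0.44, and AT1G75640 by 2.31 and −0.31. The signal of AT3G27400 was 115, 116 and 145 at 0 d, 539, 534 and 611 at 2 d, and 481, 326 and 557 at 8 d. The 8 d arrays were more spread than the others, and replicate 2 of that group was the lowest of the treated arrays. The differences from 0 d were 2.04 ± 0.16 (SE) and 1.71, and the later change of −0.32 had a 95% interval from −0.69 to 0.04.

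**Figure D1:**
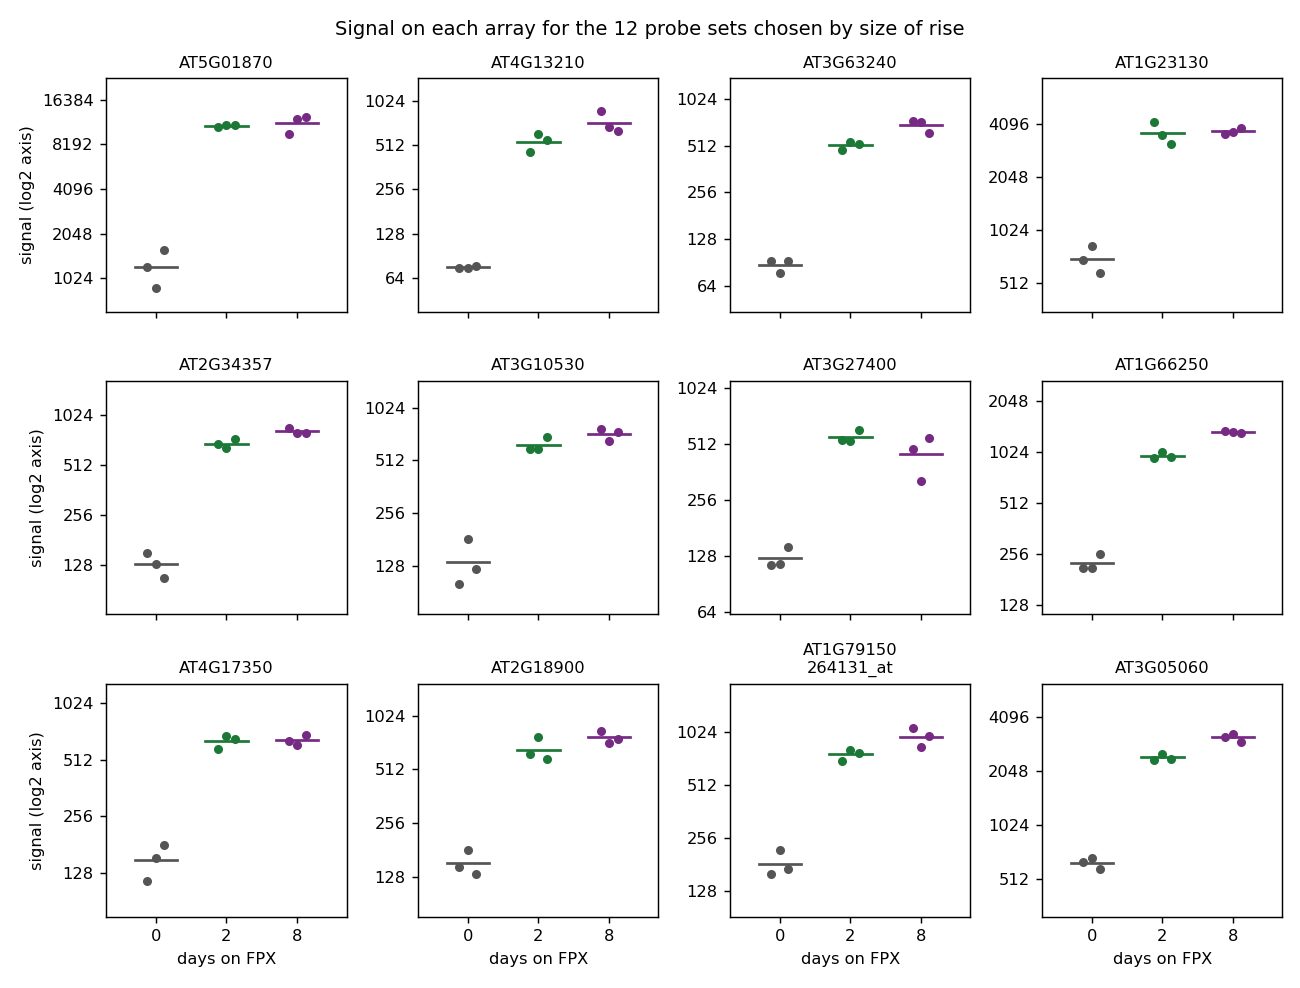
Signal (log2 axis) on each array for the 12 probe sets with the largest rises whose 2 d mean lay above the median of all probe sets, by days on FPX. Points are arrays and lines are means of 3 arrays. All treated arrays lie above the 0 d arrays in each panel, and the 2 d and 8 d levels lie close together.

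A pair of genes was measured by 2 probe sets each, and in both genes each probe set met the rule. For AT1G79150, the dimmer probe set had 105, 64.3 and 91.4 at 0 d, 407, 449 and 396 at 2 d, and 515, 455 and 483 at 8 d. The brighter one read 159, 218 and 172, then 701, 815 and 782, then 1076, 848 and 975. Both gave nearly the same differences, 2.09 and 1.98 at 2 d and 2.30 and 2.31 at 8 d. For AT5G62440 the differences at 2 d were 1.45 ± 0.14 (SE) for its dimmer and 1.34 ± 0.09 (SE) for its brighter probe set, and at 8 d they were 1.74 and 1.46. Probe sets of a gene share the RNA and the array, so the second is a repeat of the reading and not of the experiment.

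The RefSeq gene table attached a descriptive name to only a few members. AT3G09720 is listed there as RNA helicase 57 (RH57); RNA helicases use ATP to open or remodel RNA structures and are needed when ribosomes are built and transcripts are spliced. Its signal was 145, 131 and 129 at 0 d, 338, 340 and 283 at 2 d, and 389, 264 and 402 at 8 d. All treated arrays stood above the 0 d arrays, by 1.15 ± 0.14 (SE) at 2 d and 1.26 at 8 d, and the 8 d arrays spread on both sides of those at 2 d.

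AT5G55580 is listed as mTERF9, of a family of proteins that act on gene expression in chloroplasts and mitochondria. It had 93.7, 68.2 and 86.7 at 0 d, 268, 263 and 247 at 2 d, and 231, 206 and 172 at 8 d. Its 8 d arrays all lay below its 2 d arrays while staying above 0 d. The differences from 0 d were 1.49 ± 0.12 (SE) and 1.15, and the change between the treated times was −0.34.

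AT1G28060 is listed as RDM16, short for RNA-directed DNA methylation 16, after the pathway in which small RNAs direct methyl groups to matching DNA. Its signal was 268, 300 and 339 at 0 d, 798, 560 and 569 at 2 d, and 808, 590 and 687 at 8 d. Replicate 1 was the highest array at both treated times, and the 2 groups overlapped. The differences from 0 d were 1.04 ± 0.15 (SE) and 1.15. For the other 223 genes, no role was given by the annotation used here.

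Over the 228 probe sets, the difference at 2 d ran from 1.0 to 3.19, with quartiles of 1.11 and 1.54 and a median of 1.28, against a median of 0.17 over all tested probe sets. It was at least 2 in 14 members, from 1.5 to under 2 in 46, and under 1.5 in 168. Most members were thus close to the lower limit, and 47 of them lay below 1.1. At 8 d the difference from 0 d ran from 0.61 to 3.24 with a median of 1.48, against 0.36 over all probe sets, and 198 members were still at 1 or above.

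The smallest rise at 8 d was 0.61 in AT3G14740, a gene chosen for mention after its value was seen. In limma all 228 members were called higher at 2 d and all 228 at 8 d, where 44.6% and 54.9% of all tested probe sets were called higher. The arrays at 2 d lay wholly above those at 0 d in all 228, and so did those at 8 d, against 46.2% and 55.2% of all probe sets. A probe set with so large a difference in group means could hardly miss these calls, and nothing is read from the counts.

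**Figure D2:**
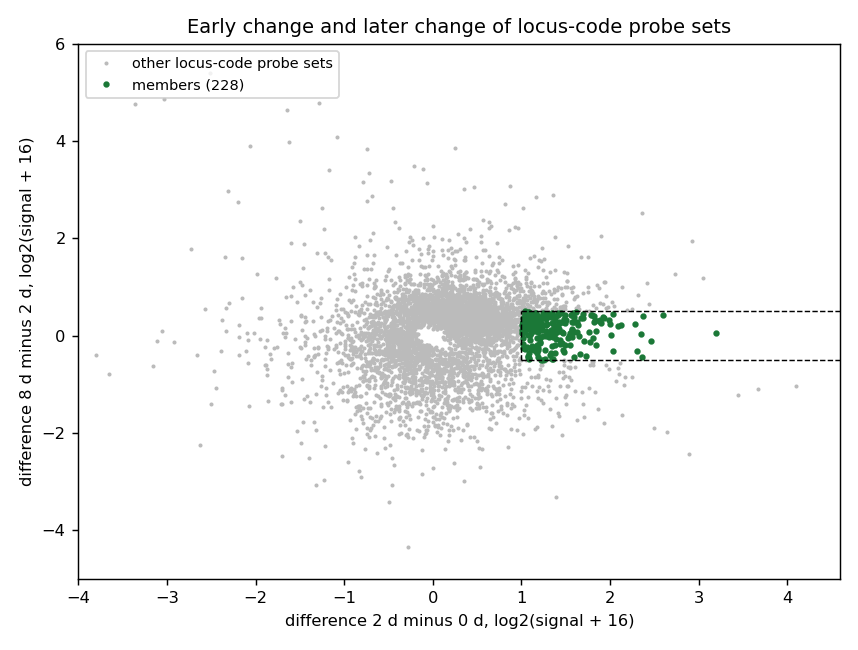
Difference between 2 d and 0 d (horizontal) and between 8 d and 2 d (vertical) on the log2(signal + 16) scale for the 5072 locus-code probe sets. The 228 members (green) fill the box set by the limits (dashed) most densely near its left edge, and the centre of the plot, where both differences are small, is nearly empty.

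From 2 d to 8 d the median change was 0.19, and 160 of 228 members (70.2%) moved up and 68 down. The median was 0.11 with array medians set equal and 0.33 centred on the hybridization controls. Over all tested probe sets, which have no limit on this change, the median was 0.15 and 58.3% moved up. The change was 0.25 or more in 93 members, between −0.25 and 0.25 in 103, and −0.25 or less in 32. It was upward in 116 of 168 members with a rise under 1.5, in 34 of 46 from 1.5 to under 2, and in 10 of 14 with a rise of at least 2.

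The limit of 0.5 also bounds how often the later change could be called, so these counts are a description of the members and nothing is read from them against the whole table. In limma 72 members were called higher at 8 d than at 2 d and 21 lower, where 43.9% and 32.1% of all probe sets were. That split was 53 higher and 34 lower with array medians set equal, 64 and 31 after quantile normalization, and 119 and 9 centred on the hybridization controls. The arrays at 8 d lay wholly above those at 2 d in 101 members and wholly below in 34, against 46.4% and 33.3% of all probe sets. The 95% interval of the change held 0 in 118 members. It lay wholly inside the limits of −0.5 and 0.5 in 92, and in 46 of these the interval of the early rise also lay wholly at or above 1.

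The most level members were AT2G18360, AT2G18330 and AT5G61330. AT2G18360 had 143, 117 and 169 at 0 d, 470, 443 and 527 at 2 d, and 500, 448 and 488 at 8 d, a difference of 1.65 at both treated times. AT2G18330 had 269, 240 and 242 at 0 d, 781, 785 and 711 at 2 d, and 824, 724 and 727 at 8 d, a difference of 1.54 at both. AT5G61330 went from 276, 226 and 253 to 544, 628 and 687 and to 703, 551 and 602, with differences of 1.25 and 1.24. In each of them the 8 d arrays overlapped the 2 d arrays, and the 95% intervals of the later change stayed within −0.27 and 0.26.

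**Figure D3:**
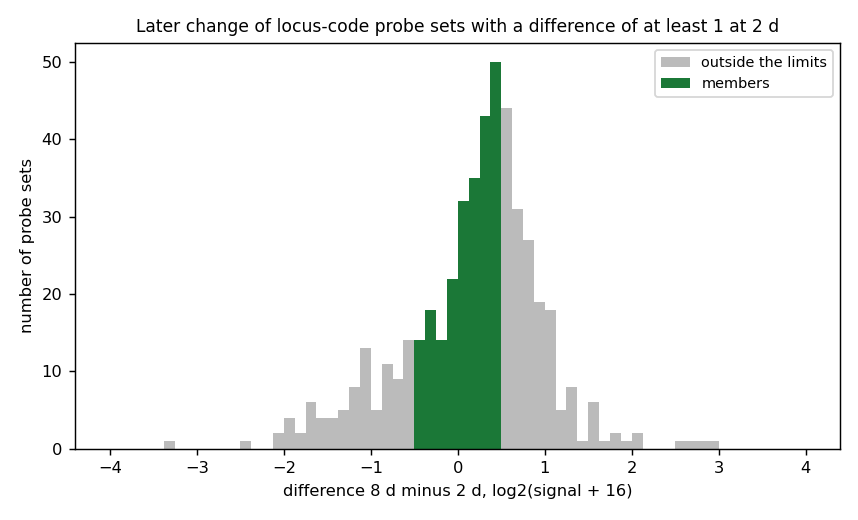
Number of locus-code probe sets (vertical) by difference between 8 d and 2 d on the log2(signal + 16) scale, for the 486 with a difference of at least 1 at 2 d. The 228 members (green) hold the tallest bars, which lie just below the upper limit of 0.5, and the distribution goes on without a gap beyond it.

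Of the 486 locus-code probe sets with a difference of at least 1 at 2 d, 46.9% were held, 169 rose by 0.5 or more from 2 d to 8 d, and 89 fell by as much. Among 88 such probe sets of genes with a symbol of their own, 50 (56.8%) were held, and among 445 that the platform annotation does not list, 216 (48.5%). The members next to a limit and the probe sets just past it had nearly the same values. At the upper limit AT5G11780 (0.499) and AT4G08310 (0.493) were members, while AT5G17930 (0.502) and AT5G08180 (0.503) were not, each with an SE of 0.09 to 0.14. AT5G11780 had 52.5, 69.3 and 64.9 at 0 d, 134, 156 and 145 at 2 d, and 235, 182 and 220 at 8 d, so all its 8 d arrays stood above those at 2 d.

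At the lower limit AT3G02120 and AT4G28230 (both −0.49) were members, and AT5G05180 (−0.5001) and AT4G14020 (−0.5010) were not. AT3G02120 had 194, 216 and 250 at 0 d, 547, 507 and 564 at 2 d, and 389, 343 and 407 at 8 d. It had lost part of its rise by 8 d on every array, from a difference of 1.24 to 0.75. AT4G28230 moved in the same way, from 1.22 to 0.73. At the limit on the early rise, AT3G44850 (1.003) and AT1G53645 (1.01) were members, and AT3G13230 (0.998) and AT1G26520 (0.994) were not.

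Replicate arrays gave a view of the members that the group means did not use. Around the mean of its own group, replicate 1 at 8 d was high in 161 of 228 members (70.6%) and replicate 2 low, with 38.6% of members above the mean, while among all probe sets 50.4% and 50.5% were above it. At 2 d replicate 2 was above the mean in 60.1% of members and replicate 1 in 42.1%. At 0 d the shares ran from 46.5% to 54.4%. Members thus leaned together on some arrays, by a median of 0.06 at most.

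Set against the 0 d means, the members' median difference was 1.25, 1.32 and 1.30 on the 2 d arrays and 1.55, 1.40 and 1.47 on the 8 d arrays. The 8 d arrays all stood above the 2 d arrays in this median. Over all tested probe sets the median lay between 0.16 and 0.17 on the 2 d arrays and between 0.34 and 0.35 on the 8 d arrays. The residual SD of a member around its group means had a median of 0.16 on the log2 scale, against 0.13 over all probe sets.

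**Figure D4:**
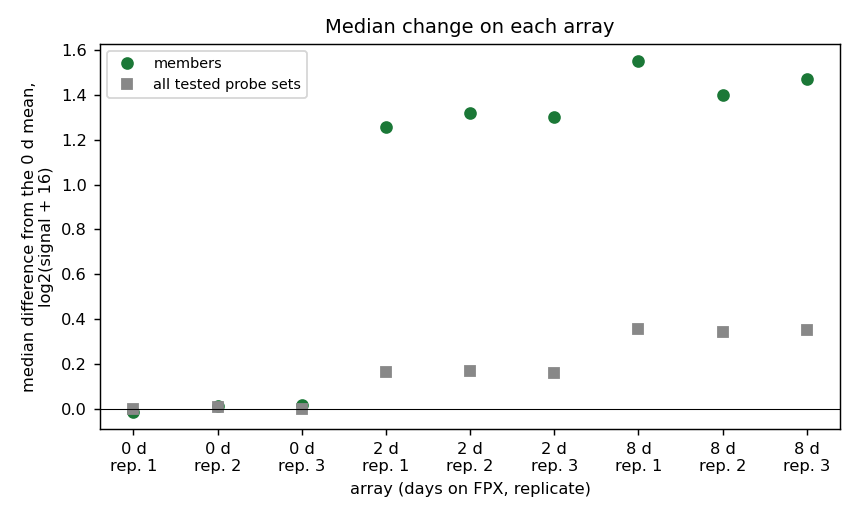
Median difference from the 0 d mean on the log2(signal + 16) scale (vertical) on each of the 9 arrays, for the 228 members (circles) and all tested probe sets (squares). The members lie between 1.25 and 1.55 on the treated arrays and all probe sets between 0.16 and 0.35.

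Members were spread over the genome. By their codes 54 of the 228 probe sets (23.7%) belong to chromosome 1, 24 (10.5%) to chromosome 2, 51 (22.4%) to chromosome 3, 40 (17.5%) to chromosome 4 and 59 (25.9%) to chromosome 5. The shares of all locus-code probe sets were 26.2%, 14.5%, 20.6%, 14.3% and 24.4% in the same order. In the gene order of the RefSeq table (assembly TAIR10.1), only AT2G01630 and AT2G01640 were next to each other among protein-coding genes.

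The signal of AT2G01630 was 104, 168 and 162 at 0 d, 330, 291 and 288 at 2 d, and 311, 252 and 318 at 8 d. That of AT2G01640 was 235, 120 and 119 at 0 d, 338, 338 and 349 at 2 d, and 447, 354 and 377 at 8 d. Replicate 1 at 0 d was the lowest array for the former and the highest for the latter. Their rises were small and imprecise, at 1.01 ± 0.15 and 1.103 ± 0.20 (SE) at 2 d. A further 9 pairs of members lay 2 to 5 places apart.

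Among tested probe sets whose gene the annotation places directly beside a member, 7 of 113 (6.19%) had a difference of at least 1 at 2 d. The share was 9.24% of all tested probe sets. It was 9.58% of locus-code probe sets and 9.68% of those of genes with a symbol of their own. Probe sets of several genes or not listed by the platform annotation could not be counted as neighbours. The 7 include AT2G01630 and AT2G01640. The gene next to AT2G18360, AT2G18370, had a larger early rise of 1.68 but fell by 1.15 from 2 d to 8 d, where AT2G18360 held.

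Many members were dim before treatment, which bears on the size of their rise. The mean signal at 0 d was under 100 in 60 members and under 50 in 10, with a lowest mean of 24.0 in AT4G14490 and a highest of 2203. The median of these means was 168 in the members, 372 over locus-code probe sets and 444 over all tested probe sets. The added 16 lowers the fold of such probe sets: as a plain ratio of mean signals the members' median rise at 2 d was 2.57-fold, and it was 2.42-fold on the log2(signal + 16) scale. Whether a dim probe set was above background cannot be read from the deposited values.

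Membership depended on how the arrays were brought to a common level. With the medians of the arrays set equal, 153 probe sets met the limits, of which 134 were among the 228, and after quantile normalization 135 did, of which 129 were. Centred on the hybridization controls, 257 did, of which 173 were members. Over 16 alternative ways of processing, 60 members met the limits every time, among them AT5G01870, AT1G23130, AT2G34357, AT3G10530, AT3G27400, AT4G17350, AT2G18900 and both probe sets of AT1G79150 and of AT5G62440. AT5G11780, at the upper limit, met them in 6 and AT3G09720 (RH57) in 12. These tallies do not count 16 independent checks. Leaving out the dimmest probe sets kept 151 members, and the rest failed there for low signal, whatever their change. With the replicate number as a block all 228 met the limits, since the group means do not change with it. A further 9 of the 16 ways each left out a single array. All 228 members were called higher at 2 d in limma under the 3 other scalings. At 8 d all were called but for 4 after quantile normalization. Of all 11228 tested probe sets, 3542 were called higher at 2 d with array medians set equal. The number was 3694 after quantile normalization and 5630 centred on the hybridization controls. At 8 d these numbers were 4934, 5222 and 6640. The limit on the early rise nearly fixed the calls of members, so nothing is read from them.

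**Figure D5:**
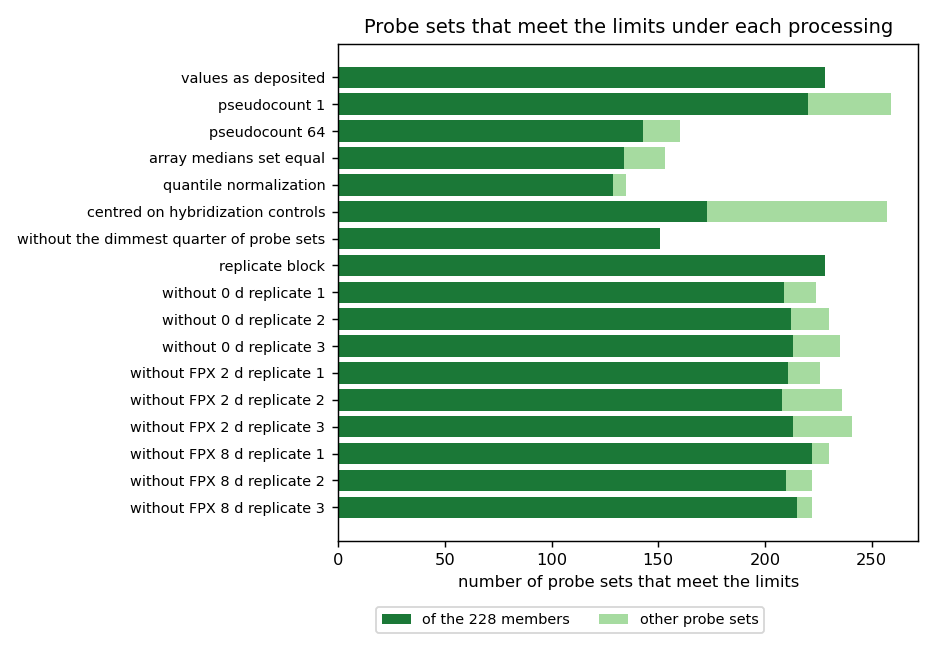
Number of probe sets that meet the limits (horizontal) under each way of processing (vertical). Dark bars count those among the 228 members and light bars the others; the number falls to 135 after quantile normalization and reaches 259 with a pseudocount of 1.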

How the data were processed

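The authors deposited a table of array intensity, 1 column per array, made with MAS5 per the submitters' processing notes; version and scaling are not given in the sources used here. No detection calls were used, and precision is limited by the number of arrays, 3 per group. Of 11249 probe sets, 21 controls were left out. Names came from the platform annotation, updated by gene identifier through RefSeq (5962 of 5981 probe sets of 1 gene). Values were used as log2(signal + 16). A mean per group was fitted over 9 arrays in R 4.3.3 by the moderated linear models of limma 3.58.1 (6 residual and 5.24 prior degrees of freedom), two-sided, with Benjamini-Hochberg adjustment over all 11228 probe sets and a threshold of 0.05. The fit was also run on simulated data with independent noise and few changed probe sets. These settings differ from the data, and no result here rests on that run.

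The members and lists were chosen with earlier results of these data known. Named are the 12 largest rises whose groups at 0 d and 2 d do not overlap and whose 2 d mean exceeds the median of all probe sets, the 3 levellest members, those nearest each limit, genes with several probe sets, neighbouring genes, and members with a descriptive RefSeq name. Keyword classes matched 13 locus-code probe sets and 1 member, so no class is described; protein identity and promoter motifs were not analysed here. Counts over members used pandas 2.3.3 under Python 3.11.15. Alternatives changed the pseudocount, the array scaling, the filter on dim probe sets, the variance trend, the replicate block and the arrays included.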

Additional observations from a re-analysis of the deposited data

How the results depend on the processing

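The limits on the members act on group means, so array scaling and the pseudocount move members across them. Quantile normalization left 135 probe sets within the limits, and leaving out the 2807 dimmest probe sets left 151, all members, which were also the number called at 2 d and at 8 d because fewer were tested. The members' median difference at 2 d and 8 d was 1.38 and 1.56 with a pseudocount of 1, 1.08 and 1.26 with 64, 1.097 and 1.22 with array medians set equal, 1.09 and 1.21 after quantile normalization, and 1.38 and 1.72 centred on hybridization controls. Their median change from 2 d to 8 d was 0.11 with array medians set equal and 0.33 centred on hybridization controls, where the median of all probe sets was 0.08 and 0.30 in place of 0.15. The median of all probe sets at 2 d went from 0.17 to −0.01 with array medians set equal, and at 8 d from 0.36 to 0.11. Of the members called between 2 d and 8 d, 77.4% were higher at 8 d, against 60.9% with array medians set equal (53 higher, 34 lower), 67.4% after quantile normalization (64 and 31) and 93% centred on hybridization controls (119 and 9). Over all probe sets called between 2 d and 8 d the share higher at 8 d was 57.7%. It was 51.9%, 56.1% and 66.4% under these scalings, in the same order. Over all probe sets called at 2 d against 0 d, another contrast, the share higher went from 61.3% to 46.3%, 51.1% and 70.1% under them. Leaving out each array in turn gave 222 to 241 probe sets within the limits and 76 to 114 members called between 2 d and 8 d. Of all probe sets, 7919 to 8586 were called between these times in those runs. The number was 8507 with the replicate number as a block and 8534 in the main fit. With the replicate number as a block, all 228 members were called higher at 2 d and at 8 d. Of all 11228 tested probe sets, 4973 and 6141 were. The group means that chose the members do not change with the block, so nothing is read from this. Between the treated times 100 members were called in place of 93. Same-numbered arrays deviated together in 1 of 9 pairs at a limit of r = 0.1 (r = −0.091 to 0.106). The numbers were therefore not taken as pairs. No signed value of the 29 named members that passed the threshold changed sign under any alternative. The limits on the members left little room for a sign change at 2 d and 8 d, so nothing is read from this. Of 1464 values of named members over the alternatives, 173 moved by at least the member's residual SD. Among these were 42 with array medians set equal, 49 after quantile normalization, 39 centred on hybridization controls and 36 with a pseudocount of 64.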

Other observations

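The same limits were met by 50 probe sets of genes that have a symbol of their own, with a median difference from 0 d of 1.36 at 2 d and 1.46 at 8 d. The genes named here were chosen after their values were seen. 3xHMG-box1 (AT4G11080), which encodes a chromosome protein with high mobility group boxes, went from a mean signal of 74.2 at 0 d to 425 at 2 d and 381 at 8 d, a difference of 2.30 ± 0.12 (SE) at 2 d. The histone H2B genes HTB2 and HTB1 were higher at 2 d by 1.51 and 1.14 and at 8 d by 1.66 and 0.76. Haspin, a kinase of histone H3 in mitosis, was higher by 1.37 and 1.59. The chromatin remodelling genes CHR24 and CHR23 were higher by 1.38 and 1.36 at 2 d and by 1.52 and 1.33 at 8 d.

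Genes outside chromosome biology met the limits too. Among the 50 probe sets of genes with a symbol of their own that met the limits, GH3.3 had the largest rise at 2 d. Its differences from 0 d were 2.94 at 2 d and 2.75 at 8 d. LPR1, a multicopper oxidase known from the root response to low phosphate, went from a mean signal of 55.7 to 370 and 361. YAO, which encodes a nucleolar protein, was higher by 1.37 and 1.496, PPR596 by 1.58 and 1.70, and the tubulin gene TUB7 by 1.0001 and 1.12. FDH, the formate dehydrogenase gene, went from 2088 to 6720 and 5623. Whether genes with a symbol and locus-code genes differ in their functions was not tested.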
